A study of Mus musculus with 3 samples.

Results

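Mitosis and spindle genes were examined in 3 lines of mouse OP9 stromal cells, with 49 genes chosen by name for their roles in building the spindle and dividing the cell. The array carried 1 probe for each of 46 of them, all with a value on every array, out of 14688 genes measured in this way. Ccnb1, Cdc25c and Bub3 were not analysed here, because no probe was annotated to them alone, by name or by a synonym of a single gene. Probes annotated to several genes were not used. Of the 46, 44 passed a limit on dim probes, which kept probes whose mean log2 intensity over the 3 arrays reached the 25th percentile, or 6.13 in intensity. Incenp and Prc1 lay below it. On the array 9 of the genes stood under older names, for example Cdc2a for Cdk1, Kntc2 for Ndc80 and Brrn1 for Ncaph.

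OP9 is a stromal cell line from newborn calvaria, and its B6C3Fe-a/a mice were homozygous for Csf1op, a mutation that removes functional M-CSF. All 3 lines shared this origin. The OP9-DL line expressed GFP and the Notch ligand Delta-like 1, the OP9-GFP line expressed GFP, and the OP9 line carried neither. No treatment was given. The sources used here do not say which promoter drove the transgenes or whether a line was 1 clone. Each line had 1 one-colour array, so no difference reported has a replicate check, a test or an error, and what the transgenes do cannot be told apart from what else differed between the cultures. Values are the authors' linear intensities, scaled to a median probe of 20 on every array. Dll1, which encodes Delta-like 1, had 333.3 in OP9-DL, 20.5 in OP9-GFP and 14.0 in OP9 cells, highest in the line labelled for it. Of 12 stromal markers 11 were measured and 9 passed the brightness limit, Col1a2 and Cxcl12 among them, while Thy1 and Eng were dim. Their summed intensity was 21336.8 in OP9-DL, 25724.4 in OP9-GFP and 32069.0 in OP9 cells, and the median log2 difference of the 9 was -0.60 for OP9-DL against OP9. Fn1 was the largest part of each sum, with 11281.8 in OP9-DL, 10240.7 in OP9-GFP and 17144.1 in OP9 cells. Within the list Pdgfra had 127.1 in OP9-DL, 166.1 in OP9-GFP and 800.6 in OP9 cells. Col3a1 had 195.9 in OP9-DL, 936.4 in OP9-GFP and 660.5 in OP9 cells. Col1a1 was instead lowest in OP9, with 557.0 in OP9-DL, 712.9 in OP9-GFP and 269.3 in OP9 cells. For OP9-DL against OP9, 2 of the 9 markers lay above 0 and 7 below, so the stromal markers also differed between the lines, in both directions.

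A cell enters mitosis when Cdk1 bound to cyclin A or B is switched on by Cdc25 phosphatases. Polo and Aurora kinases then build the spindle, condensin compacts the chromosomes, and kinetochores attach them to microtubules. The spindle checkpoint holds the anaphase-promoting complex until all chromosomes are attached. That complex then marks securin and cyclin B for destruction, separase cuts cohesin, and the cell divides at the midzone. Transcripts of most of these genes accumulate in G2 and mitosis and are low in resting cells. Many of their promoters share a short element, the CHR (cell cycle genes homology region), which the DREAM complex binds in resting cells and the B-Myb and FoxM1 complexes bind in dividing cells, usually together with CCAAT boxes bound by NF-Y.

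The mitosis and spindle genes stood higher in OP9-GFP cells than in either other line, by differences mostly under 2-fold. Of the 44 genes, 40 were highest on the OP9-GFP array, where 32.6% of the 15581 probes compared were highest. The OP9-DL array was highest for 0 genes (30.6% of probes). The OP9 array was highest for 4 genes (36.1% of probes), Ccnb2, Cdca3, Ncapd2 and Ncaph. The count of 40 was the same under quantile, median and lowess scaling of the arrays. Because these are whole cultures, more dividing cells and more transcript in each dividing cell cannot be told apart.

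For OP9-DL against OP9-GFP the median log2 difference of the 44 genes was -0.49, against -0.01 over all probes compared. On this scale 43 of the 44 genes lay below 0, where 51.3% of probes did, and Ncaph alone lay above (48.0% of probes). Hmmr was the 1 gene at least 2-fold lower (2.72% of probes) and 0 genes were at least 2-fold higher (2.31% of probes). At a threshold of 1.5-fold, 20 genes were lower, against 8.43% of probes, and 0 were higher, against 7.74%. The 25th and 75th percentiles of the log2 differences were -0.71 and -0.34 for the genes, and -0.27 and 0.24 for the probes.

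For OP9-GFP against OP9 the median log2 difference was 0.52, against 0.02 over all probes compared, and 40 of the 44 genes lay above 0, where 51.7% of probes did. Ccna2, Cdca8, Smc2, Ube2c, Mad2l1 and Espl1 made up the 6 genes at least 2-fold higher in OP9-GFP, against 4.86% of probes. The other 4 genes, Ccnb2, Cdca3, Ncapd2 and Ncaph, lay below 0 (47.7% of probes). Ncaph was the 1 gene at least 2-fold lower, against 6.75% of probes. At 1.5-fold, 19 genes were higher and 1 lower, where 13.9% and 15.4% of probes were. The genes were spread more widely in this comparison, with 25th and 75th percentiles of 0.18 and 0.83, and so were the probes, with -0.34 and 0.35.

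The OP9-DL and OP9 arrays were close for the set as a whole. The median log2 difference was -0.03, against 0.02 over all probes compared. It turned to 0.05 under quantile scaling, against 0.05 over all probes, and to 0.09 under median scaling, against 0.14 over all probes. Of the 44 genes 21 lay above 0 (51.3% of probes) and 23 below (48.3%). Cdca8 was at least 2-fold higher (4.31% of probes did so), and Ccnb2 and Ncaph were at least 2-fold lower (6.91% of probes did so). At 1.5-fold, 3 genes were higher and 5 lower, where 13.2% and 15.6% of probes were. The 3 comparisons share arrays, so their values are not independent.

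The genes fell mainly into 2 orders. In 21 genes the arrays ran from OP9-GFP over OP9-DL to OP9, the order of 20.4% of probes, and in 19 they ran from OP9-GFP over OP9 to OP9-DL, the order of 12.0% of probes. The second order included Mki67, Top2a, Birc5, Cenpa, Cenpf, Kif11, Kif20a and Hmmr, in which the OP9-GFP and OP9 arrays were close. Quantile and median scaling move all probes of an array, so genes close to 0 change order with them. The OP9-DL array was lowest for 22 genes as deposited (30.7% of probes), for 16 under quantile scaling (28.6% of probes) and for 15 under median scaling (24.0% of probes). The OP9 array was lowest for 21 genes as deposited (39.5% of probes), for 27 under quantile scaling (42.0% of probes) and for 28 under median scaling (48.5% of probes). The OP9-GFP array was lowest for 1 gene, Ncaph (28.9% of probes).

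**Figure D1:**
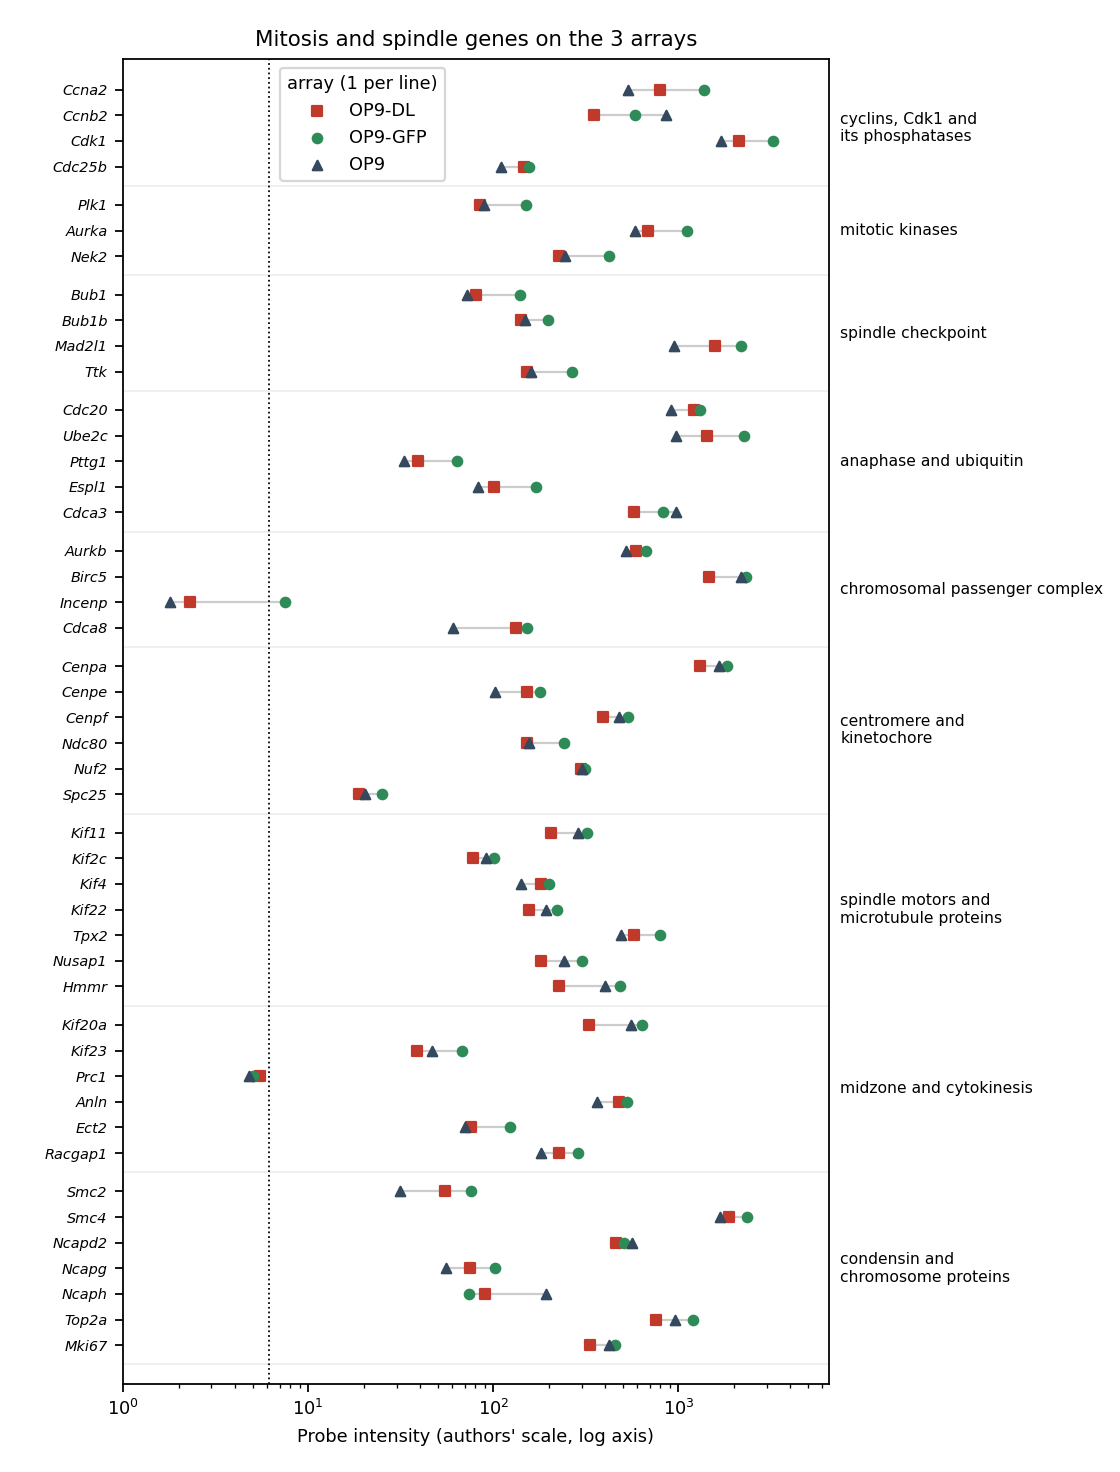
Probe intensity (log axis) of the 46 mitosis and spindle genes on the OP9-DL (squares), OP9-GFP (circles) and OP9 (triangles) arrays, 1 array per line, grouped by role. The dotted line is the brightness limit of 6.13, and the OP9-GFP point lies farthest right for 40 of the 44 genes above that limit.

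**Figure D2:**
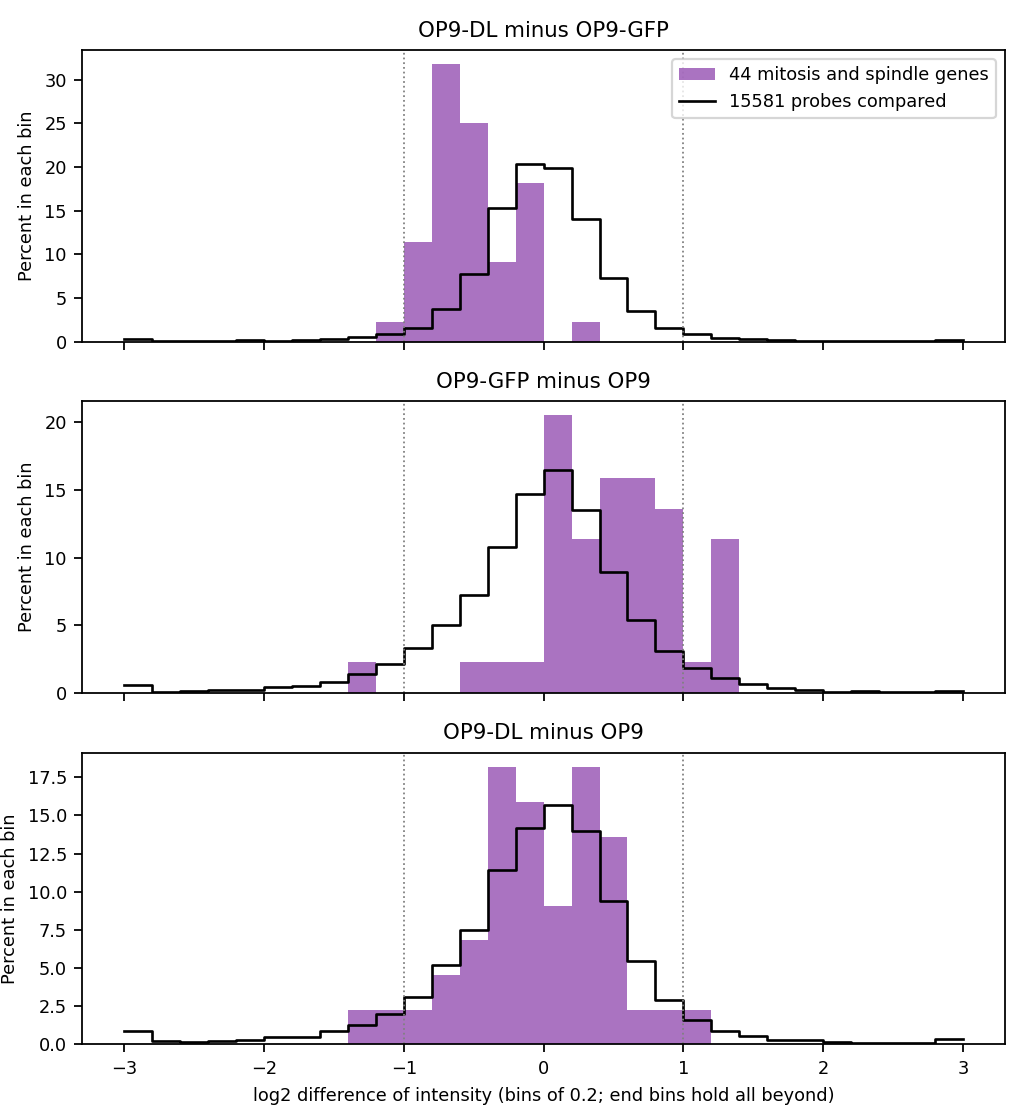
Distribution of log2 differences in bins of 0.2 for the 44 genes (bars) and the 15581 probes compared (line), for 3 pairs of arrays. Dotted lines mark 2-fold. The bars lie left of the line for OP9-DL minus OP9-GFP (median -0.49), right of it for OP9-GFP minus OP9 (median 0.52), and over it for OP9-DL minus OP9 (median -0.03).

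The promoters of these genes share sequence letters that the choice of genes did not use. RefSeq windows of 300 bases, from 250 bases before to 50 bases after the annotated gene start (GRCm38.p6), were at hand for 42 of the 49 genes, in 45 windows. The CHR search took the letters TTTGAA on either strand, so that TTCAAA counted as well. It also took the variant TTCGAA, which reads the same on both strands. These letters occurred in 33 of the 42 genes (78.6%), and in 21.7% of the 27025 genes with a window. CCAAT on either strand occurred in 33 genes (78.6%) as well, against 41.1% of all genes, and both motifs occurred in 30 genes (71.4%), against 8.61%. The CHR letters lay close to the gene start: 30 genes (71.4%) had them within the last 100 bases of a window, against 6.12% of all genes, a stretch chosen after the positions were seen. These are matches of letters and not measured binding sites.

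The windows below belong to the 6 genes with both motifs that had the highest differences of OP9-GFP over OP9, and they show how the motifs are laid out. Capitals mark the CHR letters and the CCAAT boxes, whose reverse complement is spelled ATTGG. Positions count from 1 at the 5′ end of the window, and the gene start follows base 250. The windows are chr4:124936868-124937167, minus strand (Cdca8), chr4:52438971-52439270, plus strand (Smc2), chr2:164769679-164769978, plus strand (Ube2c), chr15:102296043-102296342, plus strand (Espl1), chr2:127831810-127832109, minus strand (Bub1) and chr10:69352863-69353162, minus strand (Cdk1), all on GRCm38.p6.
Cdca8: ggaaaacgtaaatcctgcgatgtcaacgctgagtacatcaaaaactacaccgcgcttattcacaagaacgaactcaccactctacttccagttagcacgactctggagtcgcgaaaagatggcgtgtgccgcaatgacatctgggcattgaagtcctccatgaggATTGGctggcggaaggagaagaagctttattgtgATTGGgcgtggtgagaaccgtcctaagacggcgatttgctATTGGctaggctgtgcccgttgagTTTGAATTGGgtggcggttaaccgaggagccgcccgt
Smc2: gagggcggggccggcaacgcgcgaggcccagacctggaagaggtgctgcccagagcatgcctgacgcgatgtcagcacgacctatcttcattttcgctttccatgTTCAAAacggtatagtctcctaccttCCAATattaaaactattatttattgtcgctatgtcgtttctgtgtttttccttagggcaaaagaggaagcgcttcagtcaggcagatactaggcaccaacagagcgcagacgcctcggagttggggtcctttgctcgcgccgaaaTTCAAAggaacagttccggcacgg
Ube2c: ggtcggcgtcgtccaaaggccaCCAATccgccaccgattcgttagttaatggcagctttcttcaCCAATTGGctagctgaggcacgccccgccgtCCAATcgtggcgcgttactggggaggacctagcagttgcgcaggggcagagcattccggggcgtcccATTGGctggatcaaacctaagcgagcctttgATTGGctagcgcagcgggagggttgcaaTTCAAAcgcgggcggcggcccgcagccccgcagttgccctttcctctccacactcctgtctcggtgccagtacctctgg
Espl1: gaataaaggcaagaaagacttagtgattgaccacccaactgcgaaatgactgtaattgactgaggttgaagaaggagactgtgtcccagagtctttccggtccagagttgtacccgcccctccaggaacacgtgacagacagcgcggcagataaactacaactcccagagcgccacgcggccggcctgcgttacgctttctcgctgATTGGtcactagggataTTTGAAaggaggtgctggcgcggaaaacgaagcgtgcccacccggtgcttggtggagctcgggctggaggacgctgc
Bub1: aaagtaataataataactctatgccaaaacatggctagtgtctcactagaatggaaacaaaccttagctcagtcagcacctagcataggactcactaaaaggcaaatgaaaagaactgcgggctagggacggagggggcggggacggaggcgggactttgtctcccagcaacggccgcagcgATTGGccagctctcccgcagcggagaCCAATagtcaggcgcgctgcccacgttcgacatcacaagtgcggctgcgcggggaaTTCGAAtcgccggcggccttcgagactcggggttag
Cdk1: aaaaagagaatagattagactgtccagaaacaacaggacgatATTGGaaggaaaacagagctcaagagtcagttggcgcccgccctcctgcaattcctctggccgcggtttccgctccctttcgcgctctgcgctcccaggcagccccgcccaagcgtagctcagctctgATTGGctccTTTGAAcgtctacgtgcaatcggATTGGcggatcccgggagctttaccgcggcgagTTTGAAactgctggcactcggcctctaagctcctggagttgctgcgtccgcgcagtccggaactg

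In Cdk1 a CHR match began at base 236, after a CCAAT box in reverse at base 203, and an upstream pair stood at bases 180 and 171. In Espl1 a reversed box began at base 207 and the CHR letters at base 224. Bub1 had the TTCGAA form at base 265, 2 CCAAT boxes upstream at bases 183 and 209, and no other CHR match. In Cdca8 the CHR letters at base 264 overlapped the last of 4 CCAAT boxes, which began at base 269. Ube2c had 6 CCAAT boxes, of which a pair overlapped at bases 65 and 68, and its CHR letters at base 222 read on the opposite strand. In Smc2 both CHR matches, at bases 106 and 277, read on the opposite strand.

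The differences were then set beside the presence of the element. The 28 comparable genes with CHR letters in the last 100 bases had a median log2 difference of -0.57 for OP9-DL against OP9-GFP, and the 11 genes whose windows lacked them had -0.45. For OP9-GFP against OP9 the medians were 0.54 and 0.15, and the ranges overlapped, from -0.56 to 1.33 and from -1.38 to 1.21. The gene lists described further on differed in how often they held the element: 27 of 60 other mitosis genes (45.0%) had CHR letters in that stretch, as did 2 of 8 cohesin genes and 2 of 16 centrosome genes (12.5%). They were found in 1 of 10 reference genes (10.0%), 2 of 29 DNA replication genes (6.9%), 1 of 16 genes of the anaphase-promoting complex and its partners (6.25%) and 0 of 15 tubulin genes.

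**Figure D3:**
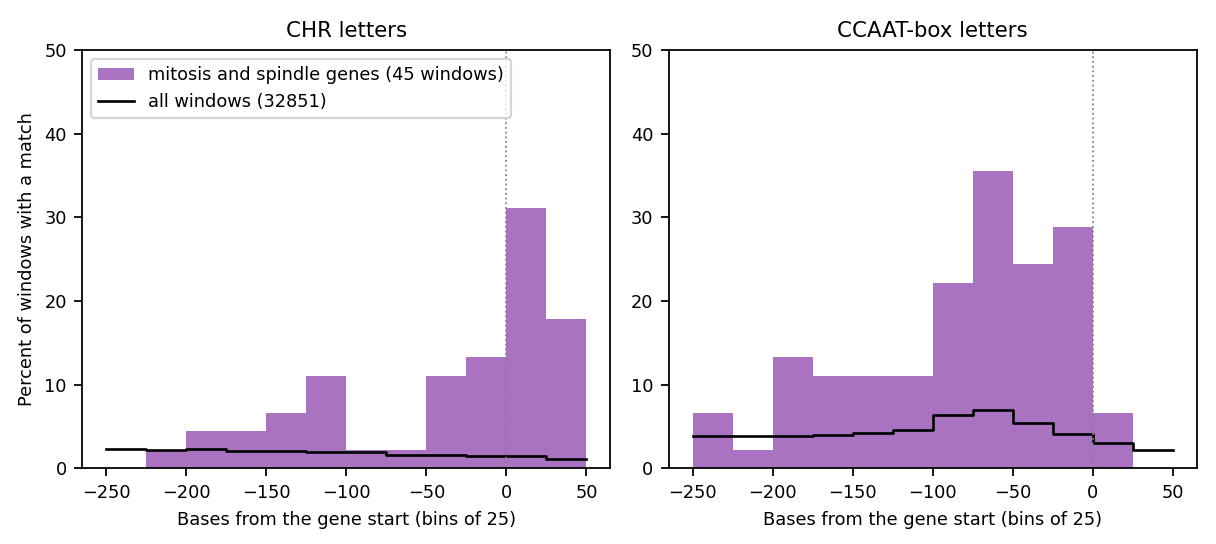
Share of promoter windows with CHR letters (left) or CCAAT boxes (right) by distance of the first matching base from the annotated gene start, in bins of 25 bases, for 45 windows of the mitosis and spindle genes (bars) and all 32851 windows (line). CHR letters peak from 0 to 25 bases after the start, in 31.1% of the genes' windows against 1.43% of all windows, and CCAAT boxes from 75 to 50 bases before it, in 35.6% against 6.99%.

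Among the cyclins, Cdk1 and its activators, the cyclins differed from each other in the comparisons with OP9. Ccna2, cyclin A2, which drives S phase and entry into mitosis, had intensities of 799.4 in OP9-DL, 1370.9 in OP9-GFP and 537.1 in OP9 cells. It was 2.55-fold higher in OP9-GFP than in OP9, the highest fold upward among the 44 genes in that comparison. Ccnb2, cyclin B2, ran the other way against OP9, with 348.6 in OP9-DL, 582.9 in OP9-GFP and 861.1 in OP9 cells. It was 2.47-fold lower in OP9-DL than in OP9. For OP9-DL against OP9-GFP the 2 cyclins were alike, with log2 differences of -0.78 for Ccna2 and -0.74 for Ccnb2. Cdk1, the kinase that both cyclins bind, had 2114.6 in OP9-DL, 3252.4 in OP9-GFP and 1689.7 in OP9 cells. Its order of arrays, shared with Ccna2, was that of 21 of the 44 genes. Cdc25b, a phosphatase that starts Cdk1 activation, had 147.1 in OP9-DL, 156.4 in OP9-GFP and 110.6 in OP9 and stayed within 1.5-fold in every pair.

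The 3 mitotic kinases were 1.63-fold to 1.86-fold lower in OP9-DL than in OP9-GFP cells. Plk1, the Polo kinase of centrosome maturation and mitotic entry, had 84.8 in OP9-DL, 150.0 in OP9-GFP and 89.6 in OP9 cells. Nek2, which separates the centrosomes, had 226.9 in OP9-DL, 421.8 in OP9-GFP and 242.5 in OP9 cells. For both, the values of OP9-DL and OP9 lay close together and OP9-GFP alone was high. Aurka, the Aurora A kinase of the spindle poles, had 685.5 in OP9-DL, 1117.4 in OP9-GFP and 581.2 in OP9 cells, a log2 difference of 0.94 between OP9-GFP and OP9.

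The 4 measured genes of the spindle checkpoint were all highest in OP9-GFP cells. Mad2l1, which encodes the checkpoint protein Mad2 that blocks Cdc20, had 1581.1 in OP9-DL, 2181.0 in OP9-GFP and 942.7 in OP9 cells. It was 2.31-fold higher in OP9-GFP than in OP9. Bub1, a kinetochore kinase of the checkpoint, had 80.9 in OP9-DL, 139.4 in OP9-GFP and 72.0 in OP9 cells. Its log2 difference between OP9-GFP and OP9 was 0.95, just under 2-fold. Ttk, the Mps1 kinase that starts the checkpoint signal, had 151.2 in OP9-DL, 265.4 in OP9-GFP and 159.2 in OP9, so that OP9-DL and OP9 were again near each other. Bub1b, the BubR1 protein of the checkpoint complex, showed a smaller difference, with 141.5 in OP9-DL, 197.8 in OP9-GFP and 148.8 in OP9.

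Of the 5 genes of anaphase and its ubiquitin machinery, 4 were highest in OP9-GFP cells. Ube2c, the ubiquitin-conjugating enzyme of the anaphase-promoting complex, had 1425.0 in OP9-DL, 2269.4 in OP9-GFP and 970.2 in OP9 cells, 2.34-fold higher in OP9-GFP than in OP9. Espl1, the protease separase, had 101.0 in OP9-DL, 169.7 in OP9-GFP and 82.4 in OP9 cells, 2.06-fold higher in OP9-GFP than in OP9. Pttg1, the separase inhibitor securin, had 39.4 in OP9-DL, 63.7 in OP9-GFP and 33.1 in OP9 cells. Separase and its inhibitor had log2 differences between OP9-GFP and OP9 of 1.04 and 0.94. Their order of arrays was that of 21 of the 44 genes, so it was not particular to this pair. Cdc20, the activator that the checkpoint holds back, had 1210.8 in OP9-DL, 1302.4 in OP9-GFP and 913.2 in OP9 cells, with the first pair close. Cdca3, a protein that promotes mitotic entry, was highest on the OP9 array, with 574.7 in OP9-DL, 825.5 in OP9-GFP and 969.5 in OP9 cells.

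The chromosomal passenger complex corrects wrong attachments and later acts at the midzone. Cdca8, its borealin subunit, had 133.2 in OP9-DL, 152.5 in OP9-GFP and 60.5 in OP9 cells. It was higher than in OP9 by 2.2-fold in OP9-DL and 2.52-fold in OP9-GFP. Taken singly, 4.31% and 4.86% of probes were at least 2-fold higher in these comparisons, and the share in both was not computed. Birc5, the survivin subunit, had 1471.7 in OP9-DL, 2319.5 in OP9-GFP and 2190.7 in OP9 cells, so here OP9-DL alone was low. Aurkb, the Aurora B kinase of the complex, had 589.1 in OP9-DL, 671.1 in OP9-GFP and 520.4 in OP9 and stayed within 1.5-fold in every pair. The probe of Incenp, the scaffold subunit, read 2.3 in OP9-DL, 7.5 in OP9-GFP and 1.8 in OP9 cells, values too dim for a firm fold. The subunits of this complex thus differed by unequal ratios between the arrays.

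Centromere and kinetochore genes were among those with small differences. Cenpa, the histone H3 variant that marks centromeres, had 1313.3 in OP9-DL, 1836.6 in OP9-GFP and 1663.6 in OP9 cells. Cenpf, a kinetochore protein of G2 and mitosis, had 391.5 in OP9-DL, 532.3 in OP9-GFP and 475.4 in OP9 cells. In both, OP9-GFP and OP9 were close and OP9-DL was lower. Cenpe, a kinesin of the kinetochore, differed from them in that OP9 was lowest, with 152.9 in OP9-DL, 179.1 in OP9-GFP and 102.1 in OP9 cells. Of the Ndc80 complex, which holds the microtubule ends, Ndc80 had 152.4 in OP9-DL, 241.5 in OP9-GFP and 156.8 in OP9 cells. Its partner Nuf2 had 297.2 in OP9-DL, 313.7 in OP9-GFP and 302.6 in OP9, the flattest profile of the 44 genes, and Spc25 had 18.8 in OP9-DL, 25.1 in OP9-GFP and 20.3 in OP9.

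Spindle motors and microtubule proteins were lowest on the OP9-DL array in 5 of 7 genes, all but Kif4 and Tpx2. Hmmr, a microtubule-binding protein of the spindle poles, had 225.8 in OP9-DL, 483.9 in OP9-GFP and 400.3 in OP9 cells. It was 2.14-fold lower in OP9-DL than in OP9-GFP. Nusap1, which bundles spindle microtubules, had 180.6 in OP9-DL, 302.1 in OP9-GFP and 240.1 in OP9 cells. Kif11, the kinesin that pushes the poles apart, had 205.6 in OP9-DL, 319.0 in OP9-GFP and 288.2 in OP9 cells. The other motors differed less: Kif2c, which shortens microtubules, had 77.7 in OP9-DL, 101.0 in OP9-GFP and 90.8 in OP9, and Kif22, a chromosome-arm kinesin, had 156.7 in OP9-DL, 220.4 in OP9-GFP and 193.5 in OP9. Kif4, another chromosome-arm kinesin, had 182.1 in OP9-DL, 201.1 in OP9-GFP and 140.3 in OP9. Tpx2, the activator of Aurora A, had 576.1 in OP9-DL, 793.2 in OP9-GFP and 491.1 in OP9 cells. Its order of arrays, shared with Aurka, was that of 21 of the 44 genes.

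Of the midzone and cytokinesis genes, 2 kinesins were lowest on the OP9-DL array. Kif20a, the midzone kinesin MKLP2, had 328.0 in OP9-DL, 633.1 in OP9-GFP and 552.3 in OP9 cells, 1.93-fold lower in OP9-DL than in OP9-GFP. Kif23, the kinesin MKLP1 of the centralspindlin complex, had 38.9 in OP9-DL, 67.9 in OP9-GFP and 46.5 in OP9 cells. Racgap1, the partner of Kif23 in that complex, had 225.2 in OP9-DL, 287.4 in OP9-GFP and 182.1 in OP9 cells, so the 2 subunits differed in whether OP9-DL or OP9 was lowest. Ect2, a cytokinesis protein that centralspindlin recruits, had 75.9 in OP9-DL, 122.4 in OP9-GFP and 70.5 in OP9. Anln, anillin of the cleavage furrow, had 480.0 in OP9-DL, 528.6 in OP9-GFP and 364.7 in OP9. Prc1, which cross-links midzone microtubules, read 5.5 in OP9-DL, 5.0 in OP9-GFP and 4.8 in OP9, below the brightness limit.

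The condensin genes passed 2-fold in both directions between OP9-GFP and OP9. Smc2, an ATPase arm of condensin, had 55.1 in OP9-DL, 75.9 in OP9-GFP and 31.4 in OP9 cells, 2.42-fold higher in OP9-GFP than in OP9. Ncaph, the kleisin subunit that closes the ring of condensin I, had 89.9 in OP9-DL, 74.1 in OP9-GFP and 193.3 in OP9 cells. It was 2.61-fold lower in OP9-GFP and 2.15-fold lower in OP9-DL than in OP9. Ncapg, another condensin I subunit, had 74.7 in OP9-DL, 102.3 in OP9-GFP and 55.8 in OP9 cells, while Ncapd2 had 459.9 in OP9-DL, 505.7 in OP9-GFP and 562.2 in OP9. Smc4, the other ATPase arm, had 1887.6 in OP9-DL, 2341.4 in OP9-GFP and 1676.9 in OP9. Each of these rests on 1 probe whose sequence was not used here, so Ncaph cannot be checked against a further probe. Of the chromosome proteins, Top2a, which untangles sister DNA, had 756.1 in OP9-DL, 1203.6 in OP9-GFP and 962.6 in OP9 cells. Mki67, the proliferation antigen that coats mitotic chromosomes, had 332.5 in OP9-DL, 454.4 in OP9-GFP and 420.0 in OP9 cells.

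**Figure D4:**
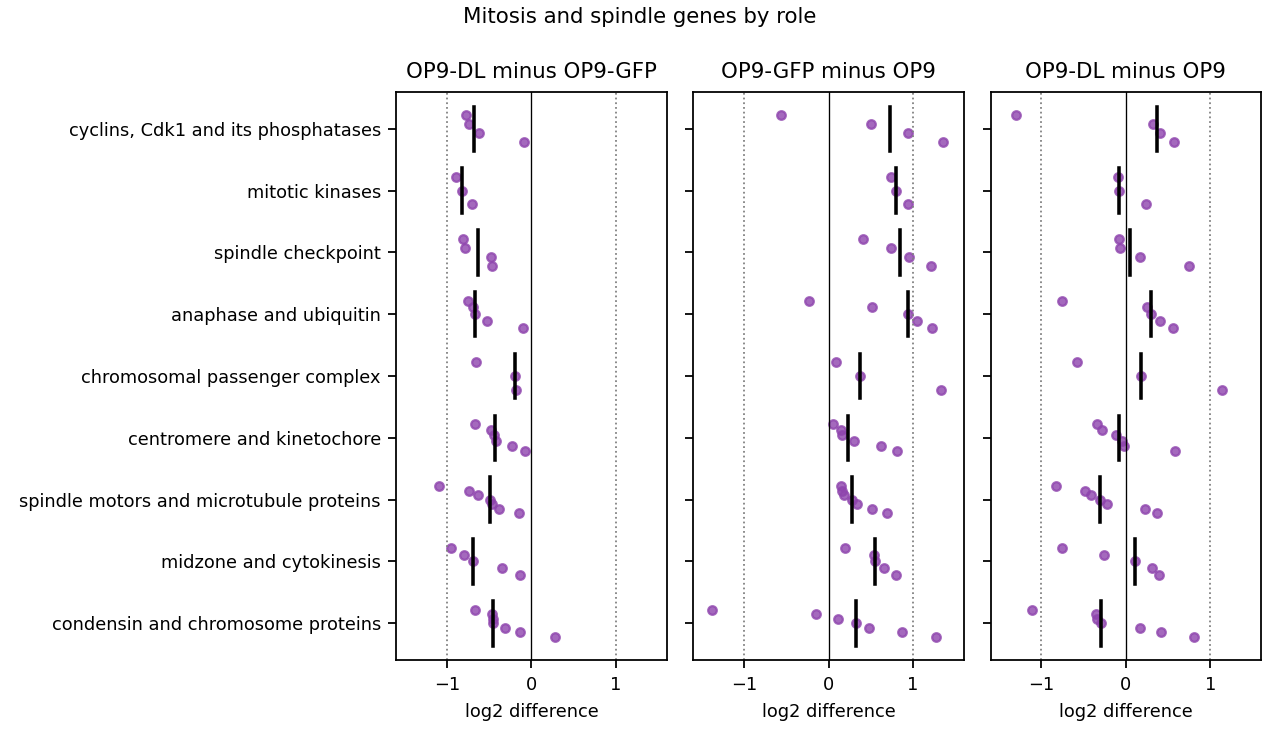
Log2 differences of the 44 genes by role (rows), 1 point per gene, with the median as a black bar, for OP9-DL minus OP9-GFP, OP9-GFP minus OP9 and OP9-DL minus OP9. Dotted lines mark 2-fold. All 9 medians lie below 0 in the first panel, from -0.82 (mitotic kinases) to -0.20 (chromosomal passenger complex), and above 0 in the second, from 0.23 (centromere and kinetochore) to 0.94 (anaphase and ubiquitin).

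The role medians shared a direction in the comparisons with OP9-GFP and went both ways for OP9-DL against OP9. Between OP9-DL and OP9-GFP the 9 role medians ran from -0.82 for the mitotic kinases to -0.20 for the chromosomal passenger complex. Between OP9-GFP and OP9 they ran from 0.23 for centromere and kinetochore genes to 0.94 for anaphase and ubiquitin genes. Both sets of signs were kept under quantile, median and lowess scaling. Against OP9, the OP9-DL medians ran from -0.30 for the spindle motors and microtubule proteins to 0.37 for the cyclins, Cdk1 and its phosphatases, with the signs of the mitotic kinases (-0.08) turning under median and quantile scaling and of the kinetochore genes (-0.08) under median scaling.

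A further list of mitosis genes, with no gene in common with the first, had nearly the same medians in the comparisons with OP9-GFP but not for OP9-DL against OP9. Of 74 other mitosis genes 61 were bright enough to compare, and their median log2 differences were -0.50 for OP9-DL against OP9-GFP and 0.54 for OP9-GFP against OP9. For OP9-DL against OP9 their median was 0.20, with 42 genes above 0 (51.3% of probes) and 19 below (48.3% of probes). The 44 genes had -0.03, with 21 above and 23 below. Of the 61 genes, 50 were highest on the OP9-GFP array, against 32.6% of probes. That array was also highest for 25 of 37 DNA replication, 10 of 14 centrosome, 8 of 13 cohesin and 10 of 17 tubulin genes. It was highest for 6 of 16 genes of the anaphase-promoting complex and its partners, and for 4 of 11 reference genes. Against OP9, 13 of the 61 genes were at least 2-fold higher in OP9-GFP (4.86% of probes) and 0 were lower (6.75% of probes). Kif18a, a kinesin that damps chromosome movements, had 140.7 in OP9-DL, 209.2 in OP9-GFP and 62.1 in OP9 cells. Cep55, which recruits the abscission machinery, had 139.2 in OP9-DL, 224.1 in OP9-GFP and 78.4 in OP9 cells. Cit, citron kinase of the midbody, and Cdkn3, a phosphatase of Cdk1, lay at the other end, with 34.9 and 236.2 on the OP9-DL array, 30.1 and 243.0 on the OP9-GFP array, and 43.0 and 329.7 on the OP9 array. Between OP9-DL and OP9-GFP, Depdc1a, Cenpk and Cenpt were at least 2-fold lower (2.72% of probes) and 0 genes were higher (2.31% of probes). Cenpk and Cenpt belong to the inner kinetochore, and Cenpt had 90.0 in OP9-DL, 199.0 in OP9-GFP and 184.2 in OP9 cells.

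For gene lists of the same machines that are also used outside mitosis, the medians lay nearer to 0 than for the 44 genes. The medians of single roles within the 44 genes overlapped with those of these lists. For OP9-DL against OP9-GFP the roles ran from -0.82 to -0.20 and these lists from -0.36 to -0.11. For OP9-GFP against OP9 the roles ran from 0.23 to 0.94 and these lists from 0.02 to 0.40. Each pair of medians in this comparison of lists is for OP9-DL against OP9-GFP, then for OP9-GFP against OP9. In the first, 2.72% of probes were at least 2-fold lower and 2.31% higher. In the second, 6.75% were lower and 4.86% higher. The 16 comparable genes of the anaphase-promoting complex and its partners had medians of -0.11 and 0.02. Fbxo5, the Emi1 inhibitor of that complex, stood apart from them with 537.2 in OP9-DL, 978.6 in OP9-GFP and 294.4 in OP9 cells, and the next, the subunit Anapc15, had 8.3 in OP9-DL, 9.5 in OP9-GFP and 7.2 in OP9. At the other end were the subunits Cdc16, with 320.0 in OP9-DL, 217.6 in OP9-GFP and 407.6 in OP9, and Anapc13, with 416.3 in OP9-DL, 488.2 in OP9-GFP and 874.8 in OP9. For 13 cohesin genes the medians were -0.21 and 0.22, and Esco2, which acetylates cohesin in S phase, was the 1 gene past 2-fold, with 109.7 in OP9-DL, 155.9 in OP9-GFP and 69.6 in OP9 cells. The cohesin subunit Stag1 followed with 24.9 in OP9-DL, 38.6 in OP9-GFP and 22.9 in OP9, and the loader subunit Mau2 (11.4 in OP9-DL, 11.6 in OP9-GFP and 17.9 in OP9) and the acetylase Esco1 (57.7 in OP9-DL, 59.9 in OP9-GFP and 77.1 in OP9) were at the other end. For 14 centrosome genes they were -0.36 and 0.40 with 0 genes past 2-fold, and Plk4, the kinase of centriole duplication, had 67.3 in OP9-DL, 85.4 in OP9-GFP and 44.5 in OP9. Ndel1, a dynein regulator, had 170.0 in OP9-DL, 287.8 in OP9-GFP and 167.4 in OP9 cells, and the centriole genes Odf2 (65.2 in OP9-DL, 57.5 in OP9-GFP and 64.8 in OP9) and Cetn2 (311.4 in OP9-DL, 333.0 in OP9-GFP and 369.2 in OP9) lay lower in OP9-GFP than in OP9. For 17 tubulin genes they were -0.16 and 0.28. Tuba4a, an alpha-tubulin, was 4.46-fold lower in OP9-DL than in OP9-GFP, with 218.7 in OP9-DL, 974.5 in OP9-GFP and 457.6 in OP9 cells, and Tubgcp2, of the gamma-tubulin complex, was the other gene past 2-fold in that comparison. Some tubulin genes of the same family are close in sequence, and a probe can mix them. The 2 probes of Tuba1b gave log2 differences between OP9-GFP and OP9 of 1.33 and 0.54, and Tubg2 (29.3 in OP9-DL, 36.1 in OP9-GFP and 53.9 in OP9) and Tubb4a (10.6 in OP9-DL, 10.5 in OP9-GFP and 14.1 in OP9) were lowest in that comparison. The 11 reference genes had medians of -0.03, which turned to 0.01 under median scaling, and 0.06. Tfrc and Pgk1 were the highest of them, with 176.5 and 4262.0 in OP9-GFP against 49.4 and 2801.6 in OP9, and B2m and Gusb the lowest, with 7336.5 and 213.9 against 15601.7 and 397.9.

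**Figure D5:**
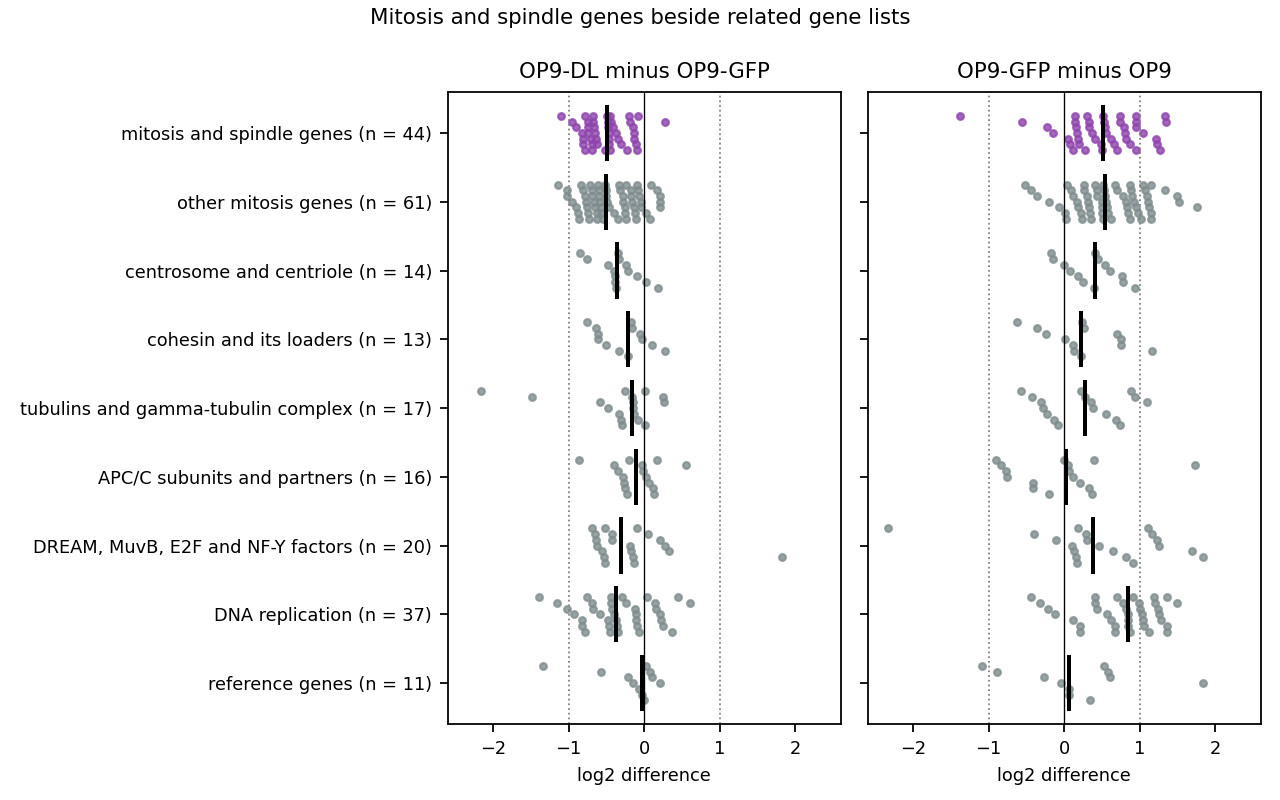
Log2 differences of the 44 mitosis and spindle genes (top row, purple) and of related gene lists (grey), 1 point per gene, with the median as a black bar, for OP9-DL minus OP9-GFP (left) and OP9-GFP minus OP9 (right). Dotted lines mark 2-fold. The other mitosis genes have medians of -0.50 and 0.54, close to the -0.49 and 0.52 of the top row, and the reference genes -0.03 and 0.06.

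The median of DNA replication genes was higher again. For OP9-GFP against OP9 their 37 comparable genes had a median of 0.84. Of them 14 were at least 2-fold higher (4.86% of probes) and 0 lower (6.75% of probes). For OP9-DL against OP9-GFP their median was -0.37, with 3 at least 2-fold lower (2.72% of probes) and 0 higher (2.31% of probes). Against OP9, the OP9-DL array had a median of 0.44 for these genes. Gmnn, the replication licensing inhibitor geminin, had 660.1 in OP9-DL, 1138.3 in OP9-GFP and 405.6 in OP9 cells, while Tk1, thymidine kinase, had 589.2 in OP9-DL, 1200.0 in OP9-GFP and 1498.2 in OP9. Pole2, a DNA polymerase subunit, had 271.7 in OP9-DL, 293.3 in OP9-GFP and 113.9 in OP9, and Gins4, of the replicative helicase, had 313.3 in OP9-DL, 341.3 in OP9-GFP and 464.5 in OP9.

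Regulators of the CHR and E2F promoters differed as well. Of 20 comparable genes of the DREAM, MuvB, E2F and NF-Y factors, 6 were at least 2-fold higher in OP9-GFP than in OP9, against 4.86% of probes. In the other direction 1 was at least 2-fold lower, against 6.75% of probes. The medians of the 20 genes were -0.31 for OP9-DL against OP9-GFP and 0.38 for OP9-GFP against OP9. Mybl2, the B-Myb activator of mitosis genes, had 66.1 in OP9-DL, 102.0 in OP9-GFP and 28.7 in OP9 cells. Lin9, a MuvB subunit, had 24.7 in OP9-DL, 27.2 in OP9-GFP and 8.4 in OP9, and Lin54, the subunit that contacts the CHR, had 28.8 in OP9-DL, 41.3 in OP9-GFP and 22.0 in OP9. E2f1, an activator of S phase genes, had 80.0 in OP9-DL, 118.1 in OP9-GFP and 50.5 in OP9 cells, and Rbl1, the p107 pocket protein, had 97.4 in OP9-DL, 107.5 in OP9-GFP and 78.3 in OP9. Rb1, the retinoblastoma protein, was the 1 gene that was lower, with 992.9 in OP9-DL, 279.3 in OP9-GFP and 1404.6 in OP9 cells. Lin37, a MuvB subunit, came next, with 107.5 in OP9-DL, 89.0 in OP9-GFP and 117.2 in OP9. The Cdk inhibitor genes Cdkn1a (487.2 in OP9-DL, 315.7 in OP9-GFP and 470.4 in OP9) and Cdkn2a (38.8 in OP9-DL, 9.8 in OP9-GFP and 63.7 in OP9) were likewise lowest in OP9-GFP. Cdkn2c was lowest there by less, with 175.9 in OP9-DL, 164.6 in OP9-GFP and 208.4 in OP9. The Cdk inhibitor gene Cdkn1b was instead highest in OP9-GFP, with 11.1 in OP9-DL, 11.7 in OP9-GFP and 7.8 in OP9. In the list of G1 cyclins and Cdk inhibitors, 14 comparable genes had medians of 0.15 for OP9-DL against OP9-GFP and 0.26 for OP9-GFP against OP9. There Ccne2, cyclin E2, had 301.9 in OP9-DL, 417.4 in OP9-GFP and 142.3 in OP9, Cdc25a, a phosphatase of Cdk2, had 120.0 in OP9-DL, 111.7 in OP9-GFP and 55.9 in OP9, and the Cdk inhibitor Cdkn1c had 3.2 in OP9-DL, 4.7 in OP9-GFP and 41.8 in OP9. Their part in the levels of the mitosis genes was not tested. Foxm1 was not analysed here.

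Markers of other cell types were summed as well. Of 16 mast and other blood cell markers 10 were measured and 4 were above the brightness limit. Their summed intensity was 884.7 in OP9-DL, 69.7 in OP9-GFP and 88.6 in OP9 cells, and without the tryptase Tpsab1 it was 65.8 in OP9-DL, 60.7 in OP9-GFP and 68.0 in OP9. The 6 measured endothelial and epithelial markers summed to 77.0 in OP9-DL, 80.4 in OP9-GFP and 78.8 in OP9. Ptprc, the common leukocyte marker, was below the limit, as were Ms4a2, Cma1, Tpsb2, Cd3e and Itgam. Tpsab1, Mcpt4, Csf1r and Cpa3 were above it, with Cpa3 close to it at 6.7 in OP9-DL, 8.1 in OP9-GFP and 4.9 in OP9. The part of other cell types in the levels of the mitosis genes was not tested.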

How the data were processed

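Total RNA of 3 OP9 lines was measured on 1 one-colour array each. Per the labels' protocols, amplified amino allyl RNA was labelled with Cy5 before fragmentation. The deposited values are linear intensity with a median of 20 on each array. The sources used here do not name the scanner, the background correction or the rule for blanks. Intensities were used as deposited, and log2 was taken with no constant. Of 23473 probes, 20775 had a value on all 3 arrays, and the 15581 whose mean log2 value reached the 25th percentile were compared. Platform symbols were updated through a RefSeq table of GRCm38.p6 (12622 current, 3947 renamed, 62 kept, 6842 probes without exactly 1 symbol). The threshold was 2-fold. The genes, lists and rules for naming were chosen with earlier results of these data known. All measured genes of the set are named, as are the listed regulators and the genes at the ends of each related list, and further genes where a small count is spelled out. Promoter windows came from RefSeq. Only the log2 differences and 2-fold counts were tried on simulated arrays with known shifts. The scalings, the gene lists and the promoter search were not tried in this way. Python 3.11.15, numpy 2.4.6, pandas 2.3.3, statsmodels 0.14.6 and matplotlib 3.10.9 were used. With 1 array per line no test was possible, and the number of arrays, 3, limits the precision.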

Additional observations from a re-analysis of the deposited data

How the results depend on the processing

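The medians of -0.49 for OP9-DL against OP9-GFP and 0.52 for OP9-GFP against OP9 kept their sign under 8 alternatives. These varied the scaling, brightness limit, constant, blanks or probe choice, and the medians ran from -0.49 to -0.44 and from 0.49 to 0.60. Probe choice could not change a median, because each gene had 1 probe. The brightness limit and the blanks could only change which genes were included. The median for OP9-DL against OP9, -0.03, turned to 0.05 under quantile scaling, 0.09 under median scaling and 0.04 without a limit on dim probes. The medians of all probes were 0.05, 0.14 and 0.03 under these settings, so the genes did not lie clearly above the probes under any of the 3. For OP9-GFP against OP9, median scaling moved the median of all probes to 0.10. It raised the genes at least 2-fold higher on OP9-GFP than on OP9 to 10, and quantile and median scaling both left 1 gene at least 2-fold lower on OP9-DL than on OP9. Without the limit on dim probes 2 genes were lower on OP9-DL than on OP9-GFP, the added one being Incenp. At 1.5-fold, 20 genes were lower on OP9-DL than on OP9-GFP, 19 were higher on OP9-GFP than on OP9, and 3 were higher and 5 lower on OP9-DL than on OP9. At 3-fold, 0 genes were called in any comparison. The shares of probes past a threshold were not computed under the other scalings, without the dim limit or at 3-fold. The counts under those settings therefore have no share beside them and say nothing particular about these genes. Of 1053 single gene values recomputed, 7 crossed 2-fold, 0 that were past 2-fold changed sign, and 13 within 2-fold did. The crossings were 2 under quantile and 5 under median scaling, and the sign changes 6 and 7. Many of the 1053 values could not change. Changing the brightness limit, blanks or probe choice could not move a gene's value, since each gene had 1 probe and no blanks. Leaving out an array was not possible, and no paired analysis was possible because each line had 1 array.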
